A study of Mus musculus with 3 samples.

Results

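Gata6, Gata4, T (brachyury), Sox17 and Pax6 are 5 transcription factor genes that regulate lineages of the mouse embryo. The Utf1 peaks listed around them in mouse embryonic stem cells are described here. Peaks were taken where they lay within 20 kb of the mm9 gene body, an overlap of at least 1 bp being enough. The genes were picked by name and no signal value entered the rule, but earlier results of these data were known at the time. This gave 44 of the 152608 peaks listed after precipitation of biotin-tagged Utf1 and 0 of the 10506 listed after precipitation of endogenous Utf1. The cells were KH2, an established mouse embryonic stem cell line, kept in medium with 15% serum and LIF on feeder fibroblasts. Chromatin immunoprecipitation with sequencing was represented by 3 groups of 1 library each: biotin-tagged Utf1, endogenous Utf1, and whole-cell extract, whose values were not analysed here. Streptavidin beads are described for the biotin precipitation, although its antibody label carries the same Utf1 antibody as the endogenous one. Feeder cells were part of the culture, and how far their chromatin entered the libraries was not tested. Because every group is a single library, no difference can be set against replicate spread, no p-value is given and each value describes 1 library.

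Genes of this kind are known in embryonic stem cells for bivalent chromatin, in which the repressive mark H3K27me3, laid down by Polycomb repressive complex 2, lies on the same promoter as the activating mark H3K4me3. The gene is then silent or nearly so, and is switched on or shut off for good as the cells take up a lineage. Utf1 is bound to chromatin in pluripotent cells and has been linked to such bivalent genes. No histone mark or expression was measured in the files used here, so the bivalent state of the 5 genes could not be checked against the data.

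Of the 5 genes, T and Pax6 have an entry in the promoter table used here (RefSeq, GRCm38.p6). The 250 bases before their first listed start are shown because a wide biotin peak lay over the 5′ end of both genes, and because a CpG-rich promoter is a known feature of bivalent genes. Both lie on the plus strand, at chr17:8434173-8434422 for T and chr2:105668646-105668895 for Pax6. These positions are in GRCm38.p6 and cannot be set against the mm9 peaks. Capitals mark each CG.
T: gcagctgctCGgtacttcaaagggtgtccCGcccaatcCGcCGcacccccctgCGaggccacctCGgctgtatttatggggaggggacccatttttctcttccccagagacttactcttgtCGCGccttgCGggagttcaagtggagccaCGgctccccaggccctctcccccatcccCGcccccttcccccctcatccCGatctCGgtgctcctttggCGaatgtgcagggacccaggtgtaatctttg
Pax6: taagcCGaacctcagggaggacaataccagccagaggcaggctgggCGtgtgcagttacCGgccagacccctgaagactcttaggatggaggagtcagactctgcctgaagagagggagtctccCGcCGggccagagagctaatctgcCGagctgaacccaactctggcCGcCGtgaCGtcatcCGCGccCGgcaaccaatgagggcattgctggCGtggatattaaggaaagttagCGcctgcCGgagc
The T stretch held 14 CG and the Pax6 stretch 15, where the median over 32851 promoter entries of the same length was 6. At least as many CG as in T were held by 29.4% of entries, and at least as many as in Pax6 by 27.3%. The share of G and C was 62.8% in T and 60.8% in Pax6, with a median of 52.4% over the table. The letters GGGCGG, searched on both strands and each containing a CG counted above, occurred at 2 places in T and 0 in Pax6. At least 2 were held by 16.7% of entries, and at least 1 by 32.7%. Both promoters were thus richer in CG than the median entry, at a level that 27.3% of the table or more reached.

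Biotin peaks stood at each of the 5 loci, and at 4 of them a peak covered the 5′ end of the gene interval used here. How often a biotin peak covers the 5′ end of other genes was not determined, so these 4 have no background share. A single peak somewhere in a window is common, since 74.7% of windows of the same length on the same chromosomes held at least 1. The 5 loci span 349 kb, of which 74.6 kb, or 21.3%, lay under biotin peaks. Of the 44 peaks, 24 touched a gene body, 12 lay in the upstream flank and 8 in the downstream flank. Tags are the sequenced reads that the authors' list counts in each peak, not scaled for depth, and fold enrichment is the authors' linear ratio for a peak. The 44 peaks held 6127 tags. Their median width was 1280 bp (interquartile range 898 to 2048), against 1085 bp for the whole biotin list. Their median tag count was 75 (33.8 to 209), against 53.0, and their median fold enrichment 5.95 (3.41 to 7.80), against 4.14.

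By width and tags, the members differed from the list more in their upper part than in their middle. A width of at least 2 kb was reached by 14 of 44 peaks, which is 31.8%, against 15.0% of all biotin peaks. These 14 peaks held 66.4% of the tags of the 44. The share of tags in peaks of that width over the whole list was not determined. The top 10% of the list by tags took in 11 of the 44, or 25%, against 10.1% of the list. By fold, 31 of 44 peaks, or 70.5%, reached the list median, against 53.0% of the list. Its 75th percentile was reached by 22 of 44, or 50%, against 25.6% of the list. The difference was smaller at the 90th percentile, reached by 6 of 44, or 13.6%, against 10% of the list. The most enriched peaks were about as frequent as in the list: a fold of 10 or more was reached by 2 of 44, or 4.55%, against 4.73% of the list. Peaks touching a gene body had a median of 130 tags, a width of 1758 bp and a fold of 6.70, and those in the flanks 38.5 tags, 978 bp and 4.14. A peak that reached into both was counted with the gene body, also the wide peaks over a 5′ end, so part of this contrast follows from the rule. Of the 24 gene body peaks, 10 were at Gata4 and 7 at Pax6. The same contrast at other genes was not determined. The flank values lie at or under the medians of the whole list.

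**Figure D1:**
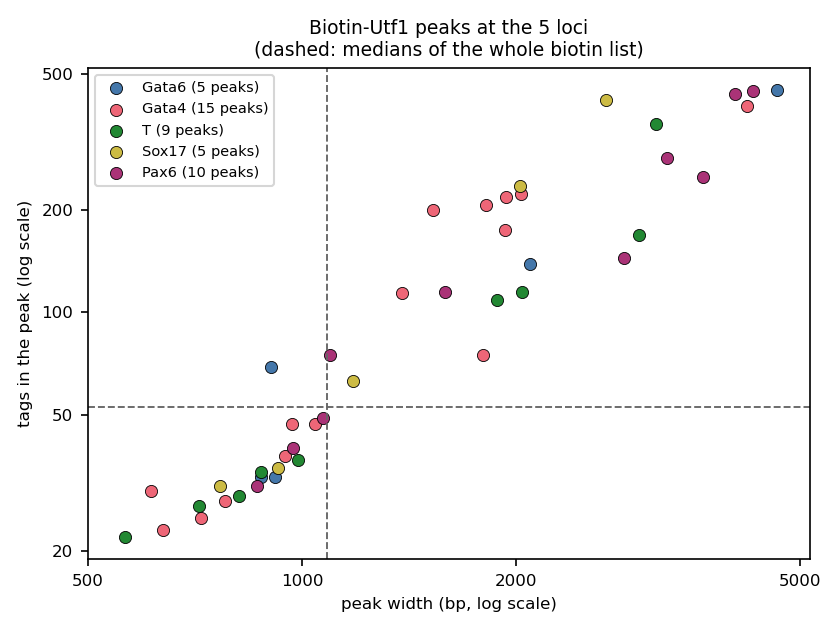
Width in bp and tags, both on log axes, of the 44 biotin-Utf1 peaks, coloured by locus, with dashed lines at the medians of the whole biotin list (1085 bp and 53.0 tags). In the plot 24 peaks lie at or above both medians, 19 lie below both, and each locus has peaks in both of these fields.

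The wide and the narrow peaks were mixed at every locus. At each of the 5 loci the widest peak was also the one with the most tags, from 358 to 448. At 1 of the 5, Gata6, it also had the largest fold. Tags are counted over the whole width of a peak, which favours the widest. How often the widest peak has the most tags at other loci was not determined. The weakest peaks of the 5 loci had 22 to 33 tags, and 22 is the smallest count in the biotin list.

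Gata6 encodes a zinc finger factor of the GATA family that drives primitive endoderm. Its 5 peaks held 722 tags, and a single peak over the 5′ end held 62.0% of them. That peak, on chromosome 18 at 11051050 to 11055696, was 4647 bp wide, the widest of the 44, with 448 tags (95% Poisson interval 407 to 491) and a fold of 7.46. Its summit lay 109 bp upstream of the 5′ end. A peak of 139 tags and a fold of 6.89 lay in the upstream flank, 2.65 kb from the gene, on the side where RefSeq places the antisense transcript Gata6os across the Gata6 start. A narrow peak inside the gene, 6.62 kb from the start, had 69 tags and a fold of 6.72. The remaining 2, one near the 3′ end and one 19.0 kb beyond it, had 33 tags each and folds of 2.59 and 2.93. The strongest Gata6 peak therefore lay at its start, and the other peaks touching the gene body had 69 and 33 tags. Together with the start peak they covered 15.0% of the gene body. Of windows as long as the gene body, 13.5% had at least that coverage. The interval used for Gata6 equals its GRCm38.p6 span to within 100 bp, and its mm9 position could not be checked, so positions relative to this gene carry that doubt.

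Gata4, the GATA factor of endoderm and heart, had the most peaks, 15, spread over and around the longest of the 5 genes (73.5 kb). They held 1851 tags, and the largest held 21.8% of them. Gata4 is transcribed from the minus strand, and it was the one gene whose 5′ end in the interval used here was free of a biotin peak. The nearest peak began 682 bp inside the gene and was weak, with 28 tags and a fold of 2.76. The interval used for Gata4 is 702 bp longer than the RefSeq gene of GRCm38.p6, which exceeds that gap. Whether this peak covers the true 5′ end of Gata4 therefore cannot be told. A stronger one, 63886660 to 63888688 on chromosome 14, followed 2.31 kb from the 5′ end with 223 tags (195 to 254) and a fold of 8.30. The widest peak lay deep in the gene at 63862938 to 63867151, with 4214 bp, 403 tags and a fold of 6.68, its summit 26.8 kb from the 5′ end. RefSeq lists 4 transcripts of Gata4, and also 9 of Sox17, 8 of Pax6 and 2 of Gata6. Where their separate starts lie in mm9 was not used here, so distances refer to a single 5′ end for each gene. Between 16.4 and 31.1 kb from the 5′ end, 4 peaks had summits with 114 to 403 tags, whereas the 4 further peaks of the gene body towards the 3′ end had 30 to 47 tags.

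The largest fold of all 44 peaks, 13.71, was found outside Gata4. This peak, at 63811681 to 63813493, lay 4.01 kb beyond the 3′ end, had 206 tags (179 to 236), and a fold of that size or more was listed for 0.507% of all biotin peaks. It lies on the side of Neil2, a DNA repair glycosylase gene that RefSeq places next to Gata4, and whether it belongs to either gene was not tested. A peak of 75 tags and a fold of 3.28 adjoined it after a gap of 35 bp. At the outer edge of the downstream flank, a peak of 200 tags reached into the locus by 71 bp, with its summit outside. The upstream flank held 2 peaks of 23 and 25 tags, both with a fold of 2.24.

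Sox17, an HMG-box factor of definitive endoderm and endothelium, is a short gene on the minus strand and had 2 strong peaks within its 5 in all. The first, on chromosome 1 at 4486154 to 4488177, covered the 5′ end with 235 tags (206 to 267) and a fold of 11.89, and its summit lay 624 bp upstream. The second, at 4481568 to 4484243 in the gene body, had 420 tags (381 to 462), a fold of 9.69 and 157 tags per kb, the densest of the 44. Together they held 83.5% of the 784 tags of the locus. The other 3 peaks lay 10.5 to 19.0 kb from the gene, with 31 to 63 tags and folds of 3.45 to 5.69. Sox17 thus had 2 dense peaks among its 5, and 55.0% of its gene body was covered. As a number, 5 peaks was 5.00 times the median window of the same length, and 15.8% of windows held as many.

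T encodes brachyury, the T-box factor of primitive streak and mesoderm, and had 9 peaks with 900 tags. The peak with the most, on chromosome 17 at 8625693 to 8628834, lay over the 5′ end with 358 tags (322 to 397) and a fold of 7.93, and its summit was 794 bp inside the gene. RefSeq places a predicted gene, LOC115486424, across the T start. The largest fold, 7.99, belonged to a peak of 2976 bp and 169 tags 18 kb upstream, on the side of the neighbouring gene T2. Between these, 4 further upstream peaks had 22 to 115 tags, and a second gene body peak had 34 tags and a fold of 2.41. Downstream of the gene, 1 peak had 29 tags and another, 12.4 kb away, had 109 tags and a fold of 5.86. The median peak at T had 37.0 tags and a fold of 3.28, both under the list medians, so a few strong peaks stood among many weak ones.

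Pax6, a paired-box and homeobox factor of eye and neural tube, was the most densely covered, with 34.3% of the locus and 55.3% of the gene body under its 10 peaks. The peak over the 5′ end, on chromosome 2 at 105506453 to 105510746, was 4294 bp wide with 446 tags (406 to 489) and a fold of 8.10. Its summit was 77 bp upstream of the 5′ end. A second peak of nearly the same size, 105513400 to 105517450, followed inside the gene with 436 tags and the largest fold of the locus, 9.60. Another wide peak lay upstream at 105499423 to 105502673, with 284 tags and a fold of 9.14, on the side of the long non-coding RNA gene Paupar. Farther inside, 4 gene body peaks had summits 12.7 to 23.9 kb from the start, with 250, 115, 144 and 49 tags. The other 3 peaks of the locus were narrow: 75 tags inside the gene, between the peak pair of 446 and 436 tags, and 31 and 40 tags upstream. The gaps between neighbouring peaks had a median of 1.23 kb and did not exceed 3.16 kb, so when peaks up to 5 kb apart were joined, the 10 peaks formed 1 stretch of 37.2 kb with 1870 tags. The downstream flank held no peak. RefSeq also places Pax6os1 across the Pax6 start and lists Elp4 as overlapping the gene, and which of these genes a peak belongs to was not tested.

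**Figure D2:**
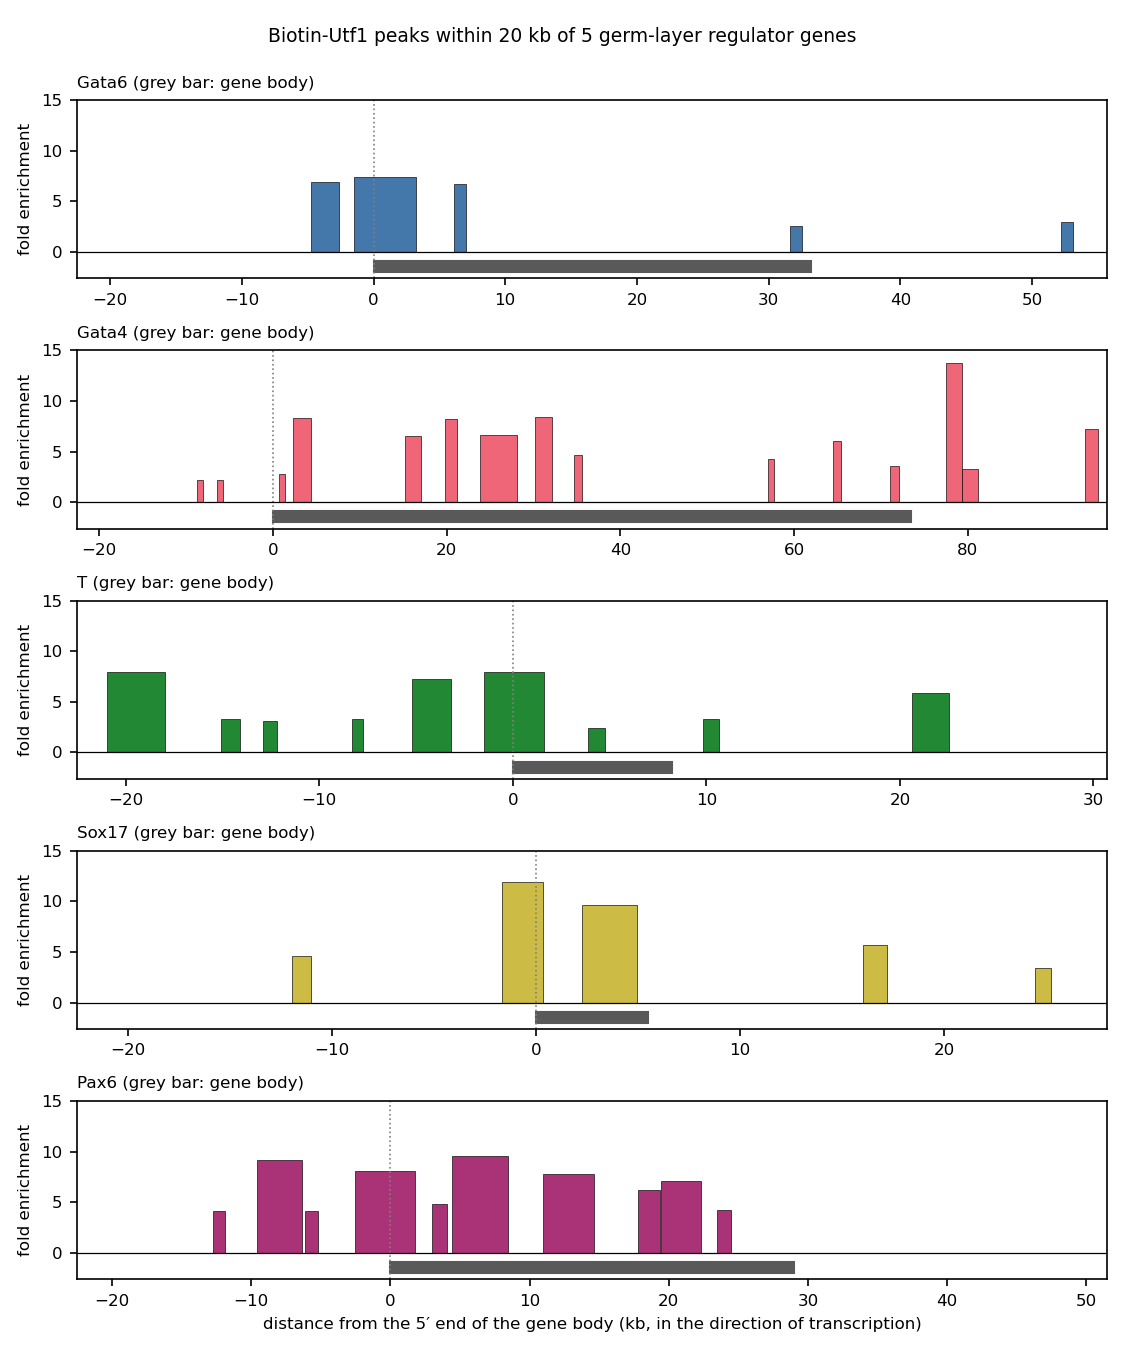
Biotin-Utf1 peaks within 20 kb of the 5 genes, drawn as boxes whose width is the peak's extent and whose height is the authors' fold enrichment, against the distance in kb from the 5′ end of the gene body (dotted line) in the direction of transcription, with the gene body in grey. A peak lies over the dotted line at Gata6, T, Sox17 and Pax6, and at Gata4 the highest box, 13.71, lies beyond the 3′ end.

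Peaks up to 1 kb apart were also joined, as a check for long runs. The longest run was then 5.47 kb at Pax6, made of 2 peaks with 511 tags, and at the other genes it was the widest single peak, from 2.68 kb at Sox17 to 4.65 kb at Gata6. At a distance of 5 kb the T run grew to 43.1 kb with 13 peaks and passed the edge of the locus, and the Gata4 run to 20.5 kb with 5 peaks.

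Each locus was then set beside all windows of its own length, tiled end to end over the same chromosome wherever genes lay. Such windows show where a locus ranks on its chromosome, but not whether it differs from other genes. Biotin coverage was above the median window at all 5 loci, from 3.95 times at Gata6 to 9.83 times at Pax6. The locus value was reached or passed by 7.26% of windows at Gata4 (95% Clopper-Pearson interval 5.78 to 8.98), 8.27% at Pax6 (7.24 to 9.40), 10.6% at Sox17 (9.73 to 11.6), 14.6% at Gata6 (12.7 to 16.8) and 15.8% at T (14.2 to 17.5). Gata4 and Pax6 therefore stood in the top 10% of their chromosomes, a group that by construction holds 10.02% of the pooled windows, and the other 3 below it. A coverage of at least 25% was found at 2 of the 5 loci, T with 27.0% and Pax6, and in 9.33% of windows pooled over the 5 chromosomes. On chromosome 17 that level was frequent, in 17.2% of windows.

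By tags, 3 loci stood in the top 10% (10.04% of the pooled windows): Gata4, where 3.54% of windows had as many (2.52 to 4.82), Sox17 with 5.51% (4.84 to 6.24) and Pax6 with 5.68% (4.82 to 6.65). Gata6 followed with 12.9% and T with 16.0%. The 784 tags at Sox17 were 12.4 times its median window, the 1870 at Pax6 11.4 times, the 1851 at Gata4 7.23 times, the 900 at T 6.00 times and the 722 at Gata6 4.75 times. By the widest peak, 4 loci stood in the top 10%, and T did not: 2.26% of windows had a peak as wide as that of Gata6 (1.49 to 3.27), 4.28% for Gata4, 7.04% for Pax6, 7.53% for Sox17 and 14.7% for T (13.2 to 16.4). The 5 loci were less set apart by the number of peaks, which was reached by 9.78% of windows at Gata4 and by 15.8 to 27.3% at the others. Against windows of all autosomes, some of these ranks were lost: Gata4 left the top 10% by coverage (14.7%) and tags (10.2%), and Sox17 by tags (10.3%) and widest peak (12.4%), while T entered it by all 3 measures. A peak of fold 10 or more was present at 2 of 5 loci, Gata4 and Sox17, and in 13.7% of the pooled windows. On the chromosome of Gata4 alone the share was 20.7%, and on that of Sox17 9.45%.

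**Figure D3:**
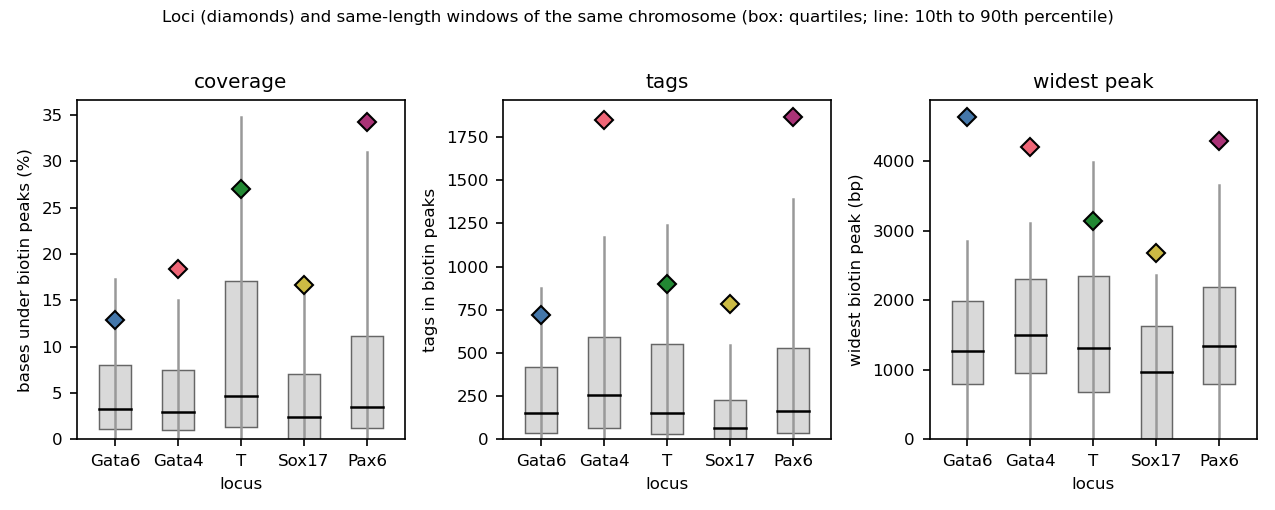
Coverage in percent, tags and widest peak in bp at each locus (diamonds), with the same-length windows of its chromosome as boxes (quartiles, with the median as a line) and a thin line from the 10th to the 90th percentile. The diamonds of Gata4 and Pax6 lie above the thin line in all 3 panels, that of Sox17 in the panels of tags and widest peak, that of Gata6 in the panel of the widest peak, and that of T in none.

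The surroundings of the 5 genes differed. Among windows within 5 Mb, the tags of Pax6 were reached by 0 of 144 (upper limit 2.53%), and its coverage by 0.694% (0.0176 to 3.81). Sox17 was alike, with its coverage and its tags each reached by 0.709% of 141 windows (0.0180 to 3.89). At Gata6 5.88% of local windows had as much coverage (2.57 to 11.3) and 6.62% as many tags (3.07 to 12.2). At Gata4 the coverage was reached by 11.4% of 88 windows (5.59 to 19.9) and the tags by 1.14% (0.0288 to 6.17). At T the coverage was reached by 19.8% of 207 windows (14.6 to 25.9) and the tags by 18.4% (13.3 to 24.3), the highest shares of the 5.

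Distance from the gene body showed the same contrast. Pooled over the 5 genes and both sides, peaks covered 25.8% of the sequence up to 5 kb from the gene body, 18% from 5 to 10 kb, 10.3% from 10 to 20 kb, 10.5% from 20 to 50 kb and 13.1% from 50 to 100 kb. Coverage just outside the genes was mostly upstream: within 5 kb it was 70.8% upstream and 0% downstream at Gata6, 66.3 and 16.3% at T, 50.9 and 0% at Pax6, and 33.5 and 0% at Sox17. Gata4 was the exception, with 0% upstream and 19.9% downstream. Within 5 kb, the upstream coverage at Pax6 and Sox17 was the overhang of the peak over the 5′ end already described. At Gata6 and T that peak gave part of it. Farther out, Pax6 had no peak from 20 to 50 kb on either side and none from 50 to 100 kb downstream. Around T, 38.1% was covered from 20 to 50 kb upstream and 34.9% from 50 to 100 kb, more than the 30.6% of its own gene body. The distance classes were chosen after the lists had been examined.

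**Figure D4:**
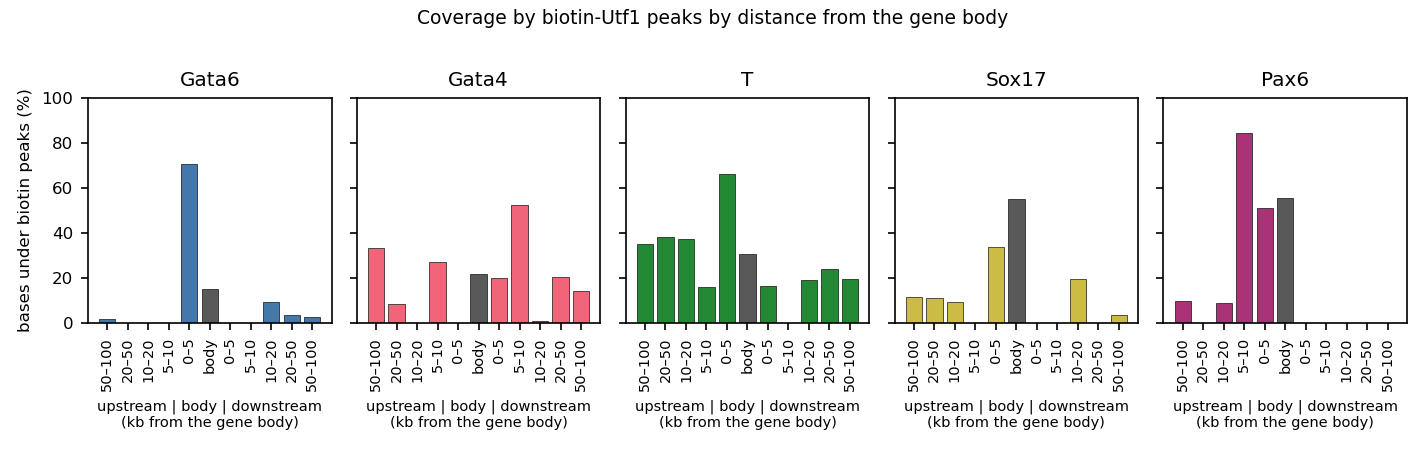
Share of bases under biotin-Utf1 peaks in percent, in the gene body (grey) and in 5 distance classes on each side of it (coloured; kb from the gene body, upstream to the left), for each gene. Coverage falls to 0% beyond the gene body downstream of Pax6, whereas at T it stays at 34.9% even 50 to 100 kb upstream.

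The endogenous list had no peak at any of the 5 loci, so that the 44 biotin peaks overlapped no endogenous peak is not a separate result. The share of all biotin peaks that overlap an endogenous peak is not given here. The absence of an endogenous peak is common, since 18.7% of the pooled windows held 1, from 15.3% on the chromosome of T to 31.8% on that of Gata4. The nearest endogenous peak lay 32.2 kb downstream of T, with 14 tags and a fold of 1.41. For Gata6 it was 96.7 kb away with 14 tags, for Sox17 117 kb with 13, for Gata4 371 kb with 19 and for Pax6 416 kb with 14. The smallest count in the endogenous list is 13, so these neighbours stood at or near its lower limit. A site with fewer tags would not have been listed, so weak binding of endogenous Utf1 at the 5 genes and none at all cannot be told apart from this list.

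The library depth is unknown, because both lists give only tags inside peaks, and the intervals on tags and windows cover counting error only. The gene bodies are rounded and differ in length from the RefSeq genes of GRCm38.p6 by 74 to 998 bp, and their mm9 positions were not checked against an annotation, so the error of a distance to a 5′ end is not known.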

How the data were processed

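Biotin-tagged and endogenous Utf1 were precipitated in 1 library each, and each has its own peak list, not pooled. The submitters' processing notes name mm9, BWA 0.5.7 and R 2.15.2 without their roles. The sources used here do not give the peak caller or its control. Per the file headers, the authors deposited for each peak a tag count, a score of 10 times the −log10 p, a linear fold enrichment ratio and a false discovery rate in percent. Gene bodies and the 20 kb flank came with the choice of genes, and the Gata6 interval equals its GRCm38.p6 span to within 100 bp, so results were repeated without Gata6. Members, lists and settings were chosen with earlier results of these data known. All 5 genes are described. Strand is from RefSeq for T and Pax6 and from general knowledge for the others. Windows ran from the first to the last listed biotin peak, without those overlapping the locus. Tags and widths of partly overlapping peaks were taken whole, and coverage was clipped at the edge. The window calculation was tested on simulated data. No mm9 annotation was used here, so other bivalent genes were not placed. Scripts ran in Python 3.11.15 (scipy 1.17.1, pandas 2.3.3, numpy 2.4.6; plots, matplotlib 3.10.9).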

Additional observations from a re-analysis of the deposited data

How the results depend on the processing

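No paired analysis was possible because each group has 1 library, and for the same reason no replicate could be left out. The 6 main results were recomputed in 39 alternatives: 27 left the value close (counts by up to 1.5 times), 12 moved it and 0 reversed it. With the gene bodies alone there were 24 biotin peaks, coverage was 28.4%, and 5 loci stood in the top 10% by tags. With a flank of 50 kb there were 69 biotin peaks and 1 endogenous peak, coverage was 16.3%, and the loci in the top 10% numbered 1 by coverage, 1 by tags and 2 by widest peak. Pooled coverage was 18.1% for the stronger 50% of the list by fold and 23.6% without Gata6, an alternative chosen after seeing the data. Against windows with at least 1 biotin peak, 1 locus, Gata4, stood in the top 10% by coverage. Of 115 values for single loci, 41 stayed within the 95% Clopper-Pearson interval of the main share of windows (stretch lengths: were equal) and 74 moved beyond it. T reached the top 10% by coverage only against all autosomes (9.36%), and by tags and widest peak there and with the gene body alone. In that setting Gata4 left it by coverage (14.7%) and tags (10.2%), and Sox17 by tags (10.3%) and widest peak (12.4%), so the 2 loci by coverage were T and Pax6 in place of Gata4 and Pax6. The cause was not tested. Unknown depth and the rounded gene bodies limit all values.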
